A study of Mus musculus with 23 samples.

Results

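RNA-seq of intestinal organoids that carry a deletion of *Rptor* was compared with RNA-seq of organoids grown to be enriched for adult stem cells. The comparison takes 7 of the 23 libraries of the series, chosen by their labels: 4 Rptor fl/fl libraries, namely 2 organoid lines with 2 technical libraries apiece, and 3 stem cell enriched (SCe) libraries from 3 lines. Technical libraries of a line were summed, so 5 lines entered the test. All lines were of the C57BL/6 strain and carried VillinCre.ERT2, a tamoxifen-inducible Cre recombinase under a promoter of the intestinal epithelium, and the crypt donors were mice of 8 to 12 weeks. SCe lines had the genotype VillinCre.ERT2.RPL22.HA, with an HA-tagged copy of the ribosomal protein RPL22, and received CHIR 99021 at 10 µM and valproic acid at 1.5 mM on top of ENR medium (EGF, Noggin and R-spondin). Rptor fl/fl lines were labelled VillinCre.ERT2.Rptor.fl/fl, without the RPL22.HA allele, and untreated, while the methods describe induction of the deletion with tamoxifen. Genotype, medium and library layout therefore changed together within this comparison, and from it alone their parts cannot be told apart. WT organoids (VillinCre.ERT2.RPL22.HA, untreated, 2 lines of 2 technical libraries each) share the genotype of the SCe lines and the label untreated with the Rptor fl/fl lines, so each group is also set beside them. WT and Rptor fl/fl lines also share the layout of 2 technical libraries per line, which the SCe lines lack. Setting the groups beside WT therefore does not separate medium from library layout. No label ties the lines to mice, so p-values measure the spread between these lines.

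Raptor, the product of *Rptor*, is the scaffold that brings substrates to mTORC1, the kinase complex that couples amino acid and growth factor supply to translation, ribosome production and lysosome function. Crypt base stem cells are marked by the R-spondin receptor Lgr5 and depend on Wnt signalling. They give rise to absorptive enterocytes and to secretory goblet, Paneth, enteroendocrine and tuft cells. CHIR 99021 inhibits GSK3 and so stabilises β-catenin, and valproic acid inhibits histone deacetylases. Damaged adult epithelium can take up a gene programme of the fetal intestine, in which YAP targets, annexins and clusterin are prominent.

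The Rptor fl/fl lines held 50611121 and 56684159 estimated counts and the SCe lines 27439433, 67598842 and 59403999. SCe line 1 stood apart from SCe lines 2 and 3. In 924 of the 15103 tested genes (6.12%) it was over 2-fold away from the mean of the other two, while lines 2 and 3 were over 2-fold apart in 50 genes (0.331%). Counts of the 13 protein-coding mitochondrial genes took 7.45% and 8.93% of the Rptor fl/fl libraries, 10.9% of SCe line 1, and 19.3% and 18% of SCe lines 2 and 3. Line 1 of each group had a summed level of 4 Y-linked genes near 7.4 CPM, against 203 to 244 CPM in the other lines. Near absence of Y-linked RNA is the state of female cells, so by these genes line 1 and the other lines of a group came from mice of different sex. Counts for the main gene lists are given with and without SCe line 1.

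*Rptor* itself (ENSMUSG00000025583.15, chr11:119602905-119899576, plus strand, mm10) had 14.9 and 15.6 counts per 1000000 (CPM) in Rptor fl/fl lines and 61.2, 54.3 and 54.0 CPM in the SCe lines. The groups were far apart, and the WT lines, at 52.0 and 48.4 CPM, lay beside the SCe lines. The log2 difference, written throughout as Rptor fl/fl minus SCe, was -1.89 ± 0.10 (SE), with an adjusted p of 0.00105 by edgeR's quasi-likelihood test. CPM is a count per 1000000 counts of the library and is not scaled to gene length, so it compares lines within a gene and not genes with each other. Both groups expressed the defining genes of intestinal epithelium. *Epcam*, an epithelial adhesion molecule, had a log2 difference of 0.05 and *Cdh1*, which encodes E-cadherin, of 0.04, neither of which passed the test. The summed level of 12 epithelial markers was 9976 and 9897 CPM in Rptor fl/fl lines, against 5192, 5726 and 5528 CPM in SCe lines. Of the 12, 7 passed the test as higher in Rptor fl/fl and none as lower (58.3%, against 42.7% of all tested genes), with a median log2 difference of 0.62.

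Of the 15103 genes tested, 6452 (42.7%) passed an adjusted p of 0.05. In Rptor fl/fl organoids 3165 genes (21%) were higher and 3287 (21.8%) lower, and these shares are the background for the list counts over all 5 lines that follow. The median log2 difference over all tested genes was -0.01, and 1166 of the higher and 1961 of the lower genes differed by more than 2-fold. In all 6452 the lines of the groups did not overlap, but 68.2% of all tested genes had no overlap with 2 lines against 3. The counts depended on which lines were present. Leaving out Rptor fl/fl line 1 gave 1265 higher and 1330 lower, and leaving out line 2 gave 1216 and 1293. Leaving out SCe line 2 gave 2063 and 2286, and leaving out SCe line 3 gave 1833 and 2126. In the absence of SCe line 1 they were 4582 and 4519, and 3161 of the 3165 higher and 3241 of the 3287 lower genes were called there too. The background moves with the lines: 60.9% of tested genes were called without SCe line 1, 29.6% without SCe line 2, 27% without SCe line 3, and 16.7% and 16.3% without Rptor fl/fl line 1 and line 2. List counts with a line left out are to be read against these shares.

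**Figure D1:**
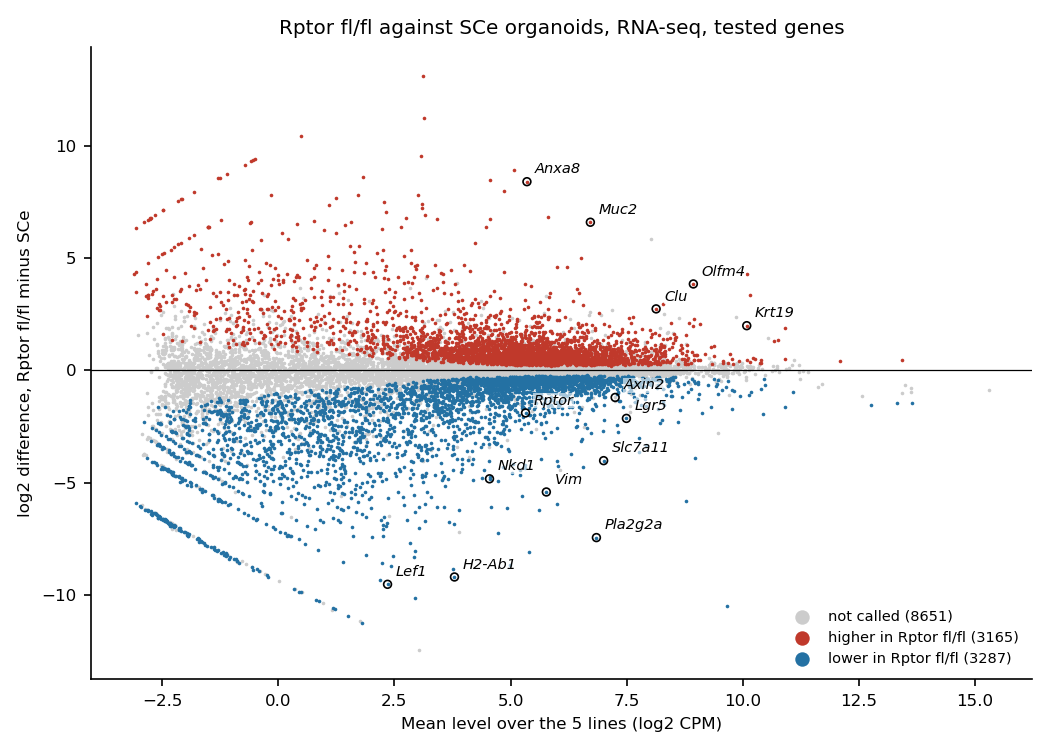
Each point is 1 of 15103 tested genes, with its mean level over the 5 lines (log2 CPM) on the x axis and its fitted log2 difference, Rptor fl/fl minus SCe, on the y axis. Red points are the 3165 genes called higher and blue points the 3287 called lower. The diagonal streaks at the left are genes without counts in 1 group, whose fitted values are set by the prior count.

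WT organoids lay nearer to Rptor fl/fl than to SCe organoids in most called genes. By mean log2(CPM + 1), this held for 76.6% of the genes higher in Rptor fl/fl and for 79.4% of those lower, against 67.8% of all tested genes and 60.1% of those not called. It concerned 2424 and 2610 genes. WT and Rptor fl/fl lines also share a library layout that the SCe lines lack, and its part in this closeness was not tested.

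The largest changes joined genes of several tissues and programmes. Among genes with at least 5 CPM in the higher group, the 10 with the largest log2 rise in Rptor fl/fl organoids included *Ctrb1*, a chymotrypsinogen of the exocrine pancreas. It was at 15.7 and 28.1 CPM in Rptor fl/fl, and a single count was found over the 3 SCe lines, which gave a ratio of summed counts of 3348 (95% counting interval 600.3 to 132279). *Mptx1*, a mucosal pentraxin, was at 17.6 and 24.1 against 0, 0.0632 and 0 CPM. The squamous keratin *Krt4* was at 88.2 and 56.7 against 0.269, 0.158 and 0.433 CPM, and the caveolar coat protein gene *Cav1* at 26.7 and 12.6 against 0.269, 0.0474 and 0.0173 CPM. *Serpinb11* was 427-fold higher by summed counts (95% counting interval 146 to 2073), and the calpain gene *Capn9*, known from the digestive tract, 242-fold (103 to 748). *Tff1*, *Clca1* and *Anxa8* complete the set and are described with their groups, beside a second entry of *Myl12b*, which shares reads with the main entry. *Serpinb11* had 3 counts over the SCe lines and none in WT, whereas *Ctrb1* had 445 and 540.0 counts in the WT lines.

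The genes with the largest fall were nearly silent in Rptor fl/fl organoids. *Gli1*, the transcriptional effector of Hedgehog signalling, was at 14, 11.5 and 13.1 CPM in SCe and had a single count in the Rptor fl/fl lines together, a ratio of 1359 (95% counting interval 244 to 53701). *Pltp*, the phospholipid transfer protein gene, had no counts in either Rptor fl/fl line and was at 1.04, 9.62 and 6.42 CPM in SCe. Its SCe mean was at least 102-fold higher (against 3 counts per library), with SCe line 1 far below lines 2 and 3. The small heat shock protein gene *Hspb1* was at 0.0780 and 0.0176 CPM against 6.53, 28.7 and 32.3 CPM. *Igfbp5*, which encodes a binding protein of insulin-like growth factors, was at 0.0585 and 0.194 CPM against 46.9, 77.6 and 33.5 CPM. *Cyfip2*, of the actin-regulating WAVE complex, was at 1.35, 13.0 and 11.9 CPM in SCe, again with line 1 far below the others. By summed counts it was 556-fold lower in Rptor fl/fl (154 to 4594), *Frmd5* 408-fold (113 to 3376) and the zinc finger gene *Zfp534* 844-fold (151 to 33358). *Gli1* and *Zfp534* were at 0 CPM in both WT lines, and *Hspb1* was at 0.0191 and 0.0204 CPM there. *Pltp*, *Igfbp5*, *Cyfip2* and *Frmd5* were low in WT too, at no more than 0.382 CPM in either line. The SCe lines alone were high for all of these genes. *Lef1*, *H2-Ab1* and *Eno1b*, an enolase gene that shares reads with *Eno1*, are the other 3 of this set and are given with their groups. In WT, *H2-Ab1* was at 0.172 and 0.204 CPM and *Eno1b* at 2.96 and 1.53 CPM, also far below SCe.

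Adult stem cell markers moved in both directions. Of 24 tested, 8 were lower and 4 higher in Rptor fl/fl organoids, with a median log2 difference of -0.41. *Lgr5*, the R-spondin receptor, was at 44.8 and 74.5 CPM against 339, 224 and 220 CPM in SCe, a 4.38-fold lower level (log2 -2.13 ± 0.32 SE, adjusted p = 0.00656). The Rptor fl/fl lines were also below WT, where *Lgr5* was at 217 and 199 CPM. *Nav1*, a microtubule-binding protein gene listed among stem cell markers, was at 17.1 in both Rptor fl/fl lines and at 203, 119 and 109 CPM in SCe. *Tnfrsf19*, a receptor of the tumour necrosis factor family found on crypt base cells, was at 4.88 and 6.03 against 184, 56.6 and 71.8 CPM. The urea transporter gene *Slc14a1* had 1 count in the Rptor fl/fl lines together, a ratio of 251 (95% counting interval 44.8 to 9959). *Smoc2*, a secreted matrix protein gene, was lower as well (log2 -1.75).

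*Olfm4* and *Ascl2* were higher in Rptor fl/fl than in SCe. *Olfm4*, a secreted glycoprotein gene used to stain crypt base cells, was at 525 and 1694 CPM against 136, 42.5 and 53.3 CPM, 14.4-fold higher (log2 3.85 ± 0.73 SE, adjusted p = 0.0125). All 5 lines were below WT, where it was at 2893 and 4477 CPM. *Ascl2*, a transcription factor of the stem cell programme, was at 12.8 and 12 against 7.71, 4.04 and 5.18 CPM, with WT at 22.9 and 17.3 CPM. *Mex3a*, an RNA-binding protein gene of slowly cycling stem cells, was at 13.9 in both Rptor fl/fl lines and at 32.4, 13.0 and 14.4 CPM in SCe, and it did not pass the test (adjusted p = 0.382). The list depended on SCe line 1. Without it 9 markers were higher and 11 lower, with a median of -0.07. With either Rptor fl/fl line left out, 4 were lower and 1 or 2 higher. Fewer stem cells and less of these RNAs per cell cannot be told apart in RNA of whole organoids, and the same holds for every cell type below.

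Among Wnt feedback genes and targets, more were lower than higher in Rptor fl/fl organoids. Of 23 tested, 10 were lower, 2 higher and 11 not called, with a median of -1.43. *Lef1*, a transcription factor that partners β-catenin, was at 0 and 0.0176 CPM against 10.1, 7.5 and 7.91 CPM, a ratio of summed counts of 882 (95% counting interval 158 to 34857). The related factor *Tcf7* was at 8.09 and 6.61 against 31.3, 31.0 and 31.4 CPM (log2 -2.09 ± 0.13 SE, adjusted p = 0.00107). *Notum*, a lipase that inactivates Wnt ligands, was 35.9-fold lower by summed counts (16.3 to 98.7). The Wnt inhibitor *Apcdd1* was at 1.25 and 1.23 against 11.7, 8.33 and 12.5 CPM. The WT lines were far below the SCe lines in these genes. *Lef1* was at 0.0763 and 0.163 CPM, *Tcf7* at 13.9 and 13.0 CPM and *Apcdd1* at 1.68 and 0.978 CPM in WT.

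*Axin2*, the most used feedback gene of the pathway, was at 77.0 and 94.6 CPM in Rptor fl/fl and at 320, 140 and 131 CPM in SCe, with WT at 189 and 183 CPM. Its lines did not overlap, yet its adjusted p was 0.0834 with SCe line 1 and 0.0042 without that line. *Nkd1*, another feedback inhibitor, was at 0.956 and 1.73 against 82.0, 15.9 and 16.8 CPM. *Trib2*, a pseudokinase gene, was the member with the largest rise, at 0.858 and 0.670 against 0, 0.111 and 0.0866 CPM. Over the list the median difference from WT was -0.19 for Rptor fl/fl and 1.16 for SCe. Without SCe line 1 the count was 15 lower and 5 higher, and without Rptor fl/fl line 1 it was 5 lower and 0 higher.

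Some Notch ligands and factors of the secretory fate were higher in Rptor fl/fl organoids. Of 16 tested, 6 were higher, none lower and 10 not called (37.5% called), with a median of 0.83. The ligand gene *Dll1* was at 64.8 and 70.3 CPM against 15.6, 12.9 and 13.1 CPM (log2 2.28 ± 0.11 SE, adjusted p = 0.000978). *Jag1*, a second ligand, was at 109 and 87.1 against 23.6, 17.5 and 14.9 CPM, and *Nrarp*, a feedback regulator of Notch, at 25.4 and 31.1 against 8.18, 7.85 and 7.32 CPM. The goblet cell factor *Spdef* was at 20.5 and 27.1 against 1.01, 2.16 and 2.37 CPM. *Sox4*, a transcription factor of secretory progenitors, had the most negative value (log2 -1.60, adjusted p = 0.0507), at 81.1 and 90.6 against 439, 177 and 165 CPM. With single lines left out, between 4 and 8 were higher, and *Sox4* alone was lower when SCe line 1 was absent.

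Among transcription factors of intestinal identity, more were higher than lower. Of 21 tested, 10 were higher and 1 lower, with a median of 0.47. *Cdx1*, a homeobox factor of the intestinal epithelium, was at 93.7 and 106 CPM against 47.2, 46.7 and 44.3 CPM, with WT at 106 and 120 CPM. The hepatocyte nuclear factor gene *Hnf4a* was at 772 and 771 against 452, 504 and 433 CPM. *Klf4*, a factor of differentiating cells, was at 86.8 and 83.8 against 21.5, 13.6 and 15.4 CPM, which is also above WT, at 33.0 and 24.2 CPM. *Onecut2* differed by 1.59 on the log2 scale. *Isx*, an intestine-specific homeobox factor, was at 9.61 and 4.88 CPM against 0.606, 0.0158 and 0.0519 CPM, and WT lines, at 0.134 and 0.0815 CPM, were low as well. Leaving out either Rptor fl/fl line gave 4 higher and 0 lower. Leaving out SCe line 1 gave 16 higher and 3 lower, with a median of 0.63.

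Goblet cell genes were mostly higher. Of 17 tested, 13 (76.5%) were higher in Rptor fl/fl organoids and none lower, with a median of 3.36. *Muc2*, the gel-forming mucin, was at 234 and 285 CPM against 1.62, 2.05 and 4.24 CPM (log2 6.59 ± 0.45 SE, adjusted p = 0.00118). WT lines were between the groups, at 81.3 and 95.6 CPM. *Agr2*, a disulphide isomerase needed for mucin folding, was at 183 and 204 against 12.4, 16.1 and 18.1 CPM. *Clca1*, a secreted component of mucus, was at 44.5 and 71.6 against 0.0337, 0.174 and 0.225 CPM. The ferlin gene *Fer1l6* was higher (log2 5.10), as was *Ern2*, the stress sensor of the goblet cell endoplasmic reticulum (log2 3.53). *Galnt12*, a glycosyltransferase gene, had the lowest value (log2 -0.47) and did not pass the test. The median difference from WT was 0.52 for Rptor fl/fl and -2.54 for SCe. Between 11 and 16 genes were higher with single lines left out, and none was lower in any of those fits.

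Among enteroendocrine and tuft cell genes, those called were higher in Rptor fl/fl organoids with 1 exception. Of 20 enteroendocrine genes tested 8 were higher and none lower (median 1.90). *Tph1*, the serotonin-synthesis enzyme of enterochromaffin cells, was at 6.44 and 17.8 CPM against 0.0337, 0.126 and 0.0866 CPM. The granule protein gene *Chga* was at 8.37 and 21.1 against 0.168, 1.31 and 1.42 CPM, and below WT, at 28.5 and 39.4 CPM. *Tac1*, which encodes the precursor of substance P, and *Pax4*, a fate factor, were higher by 4.33 and 4.66 on the log2 scale. *Sct*, which encodes secretin, had a negative value (log2 -1.12) that did not pass the test. Of 13 tuft cell genes 7 were higher and 1 lower (median 2.57). The summed level of the 16 listed tuft genes did not follow, at 262 and 344 CPM against 406, 341 and 369 CPM. *Dclk1*, a kinase that marks tuft cells, was at 12 and 21.4 against 0.303, 1.94 and 1.04 CPM. The taste channel gene *Trpm5* was at 8.87 and 13.4 against 0.909, 2.31 and 2.23 CPM, and the adaptor gene *Sh2d6* was higher as well (log2 4.16). The interleukin receptor gene *Il17rb* was the member lower (log2 -1.23). In all 7 of the genes named here as higher, Rptor fl/fl line 2 lay above line 1. With line 2 left out, 2 enteroendocrine and 0 tuft genes were higher. With line 1 left out the counts were 2 and 1, and without SCe line 1 they were 10 and 9.

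Paneth cell genes were split. Of 20 tested, 6 were lower and 2 higher, with a median of -0.59. *Pla2g2a*, a secreted phospholipase, was at 0.663 and 1.53 CPM against 299, 137 and 138 CPM (log2 -7.43 ± 0.69 SE, adjusted p = 0.00206), with WT at 6.54 and 5.54 CPM. The lectin gene *Itln1* was at 140 and 284 against 552, 898 and 922 CPM. *Mptx2*, a pentraxin of Paneth cells, was higher, at 8.11 and 13.8 against 0, 0.111 and 0.918 CPM, and so was the stress-response gene *Nupr1* (log2 0.79). *Lyz1*, the lysozyme used as a Paneth cell stain, was at 103 and 208 CPM in Rptor fl/fl and at 213, 1354 and 1653 CPM in SCe, with WT at 1266 and 1496 CPM. SCe line 1 lay beside the Rptor fl/fl lines, and the adjusted p was 0.0664. Without SCe line 1 it was 0.00101, and 10 Paneth cell genes were lower. The antimicrobial lectin genes *Reg3b* and *Reg3g* were lower too, and they too were far lower in SCe line 1 than in lines 2 and 3. *Reg3b* was at 16.6 and 9.31 CPM against 45.5, 805 and 1332 CPM. With Rptor fl/fl line 1 left out 1 gene of the list was lower, and with SCe line 3 left out also 1. Summed over the list, Rptor fl/fl lines were at 1131 and 2272 CPM, SCe lines at 1471, 5684 and 7125 CPM, and WT lines at 5886 and 7288 CPM.

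Enterocyte genes gave fewer calls than the background when SCe line 1 was included. Of 32 tested, 5 were higher and 2 lower (21.9% against 42.7% of all genes), with a median of 0.50. *Apob*, the structural protein of lipoprotein particles, was at 2509 and 2558 CPM against 662, 1201 and 1220.4 CPM. *Dgat2*, a triglyceride synthesis enzyme, was at 103 and 118 against 60.4, 73.6 and 76.9 CPM. *Alpi*, the brush border phosphatase, was at 679 and 1099 against 83.8, 344 and 250 CPM (adjusted p = 0.0461). A pair of enzymes went the other way, namely adenosine deaminase (*Ada*), at 4.33 and 4.74 against 26.8, 26.6 and 24.4 CPM, and the aminopeptidase *Anpep*, at 20.7 and 34.4 against 113, 148 and 169 CPM. *Treh*, the trehalase gene, had the largest positive value (log2 2.62) without passing the test. Without SCe line 1, 13 enterocyte genes were higher and 7 lower, a share like that of all genes (60.9%), and the median was 0.14. With either Rptor fl/fl line left out none was higher.

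**Figure D2:**
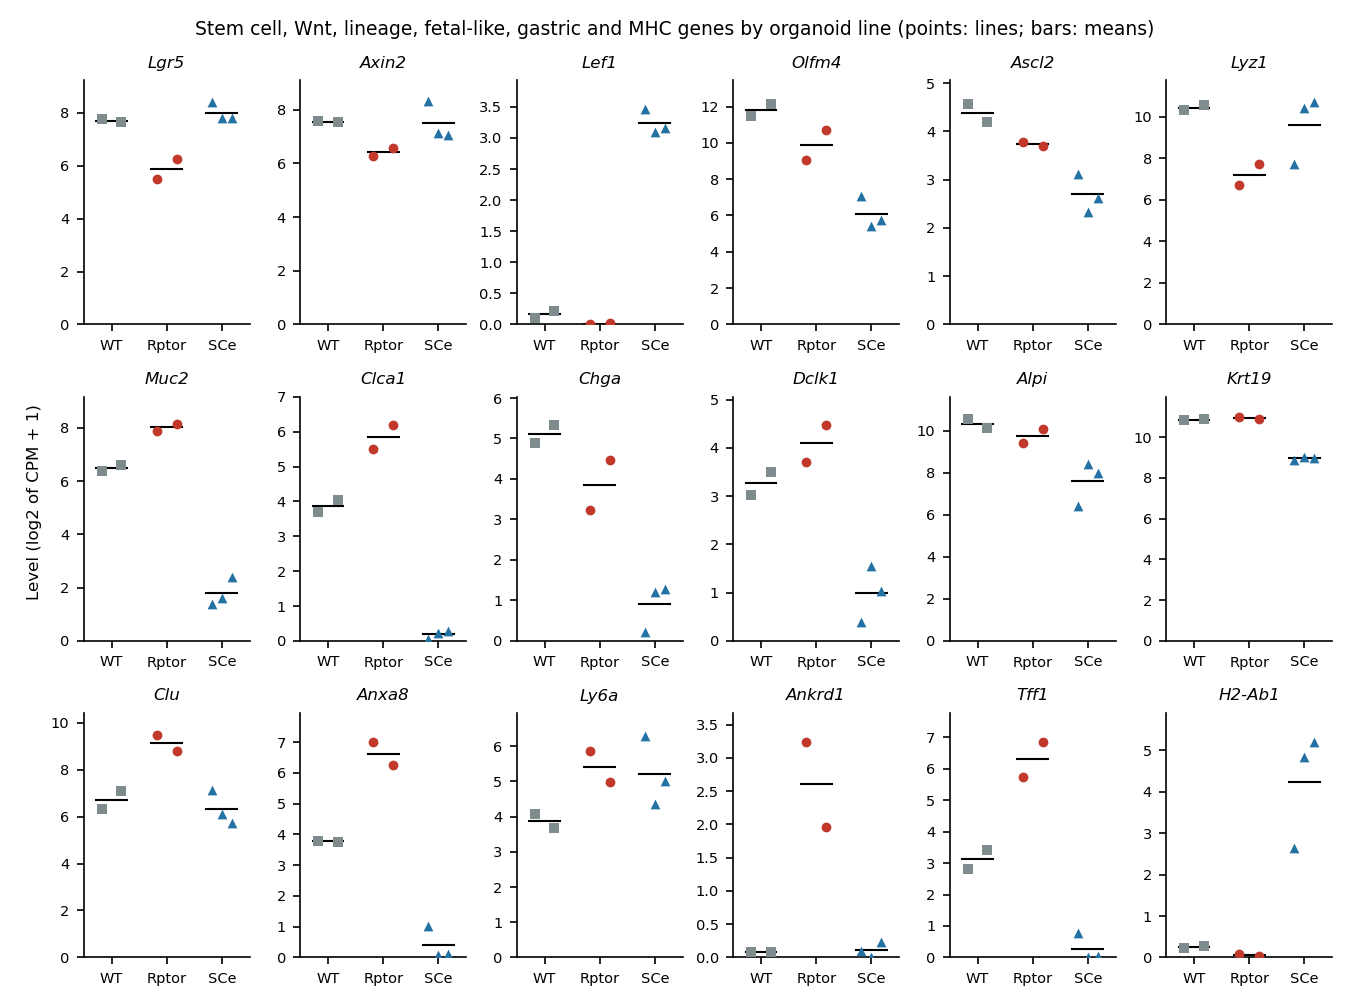
Levels of 18 genes on the y axes, as log2(CPM + 1), in the 2 WT lines (grey squares), the 2 Rptor fl/fl lines (red circles, labelled Rptor) and the 3 SCe lines (blue triangles), with bars at the group means. The leftmost triangle is SCe line 1, which lies apart from the other triangles for *Lyz1* and *Alpi*, while *Muc2*, *Clca1*, *Anxa8* and *Lef1* separate the groups in every line.

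Among genes of the fetal-like programme, more were higher than lower in Rptor fl/fl organoids. Of 33 tested, 16 were higher, 4 lower and 13 not called, with a median of 1.43. *Clu*, which encodes the chaperone clusterin, was at 703 and 445 CPM against 139, 67.3 and 51.7 CPM (log2 2.74 ± 0.47 SE, adjusted p = 0.00963), and WT was at 79.8 and 137 CPM. Of the annexin genes, *Anxa8* was among the largest changes. It was at 128 and 74.7 against 1.04, 0.0632 and 0.0866 CPM, with WT between the groups, at 12.9 and 12.5 CPM. *Anxa10* was at 133 and 169 against 9.52, 4.39 and 4.97 CPM, and *Anxa3* at 240 and 155 against 33.3, 19.2 and 26.5 CPM. *Anxa10* was at 146 and 194 CPM in WT, so the Rptor fl/fl and WT lines overlapped and the SCe lines alone were low. The simple keratin gene *Krt19* was at 2052 and 1898 against 467, 516 and 507 CPM, with WT at 1829 and 1878 CPM. *Ly6e*, a membrane protein gene of the Ly6 family, was the largest fall, at 45.2 and 39.5 against 425, 256 and 323 CPM.

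The fetal-like genes used for staining and PCR in this system differed in how well the lines separated. *Ly6a*, which encodes the surface antigen Sca1, was at 57.1 and 30.4 CPM against 77.7, 19.4 and 31.2 CPM, and WT was at 15.8 and 11.9 CPM. The groups overlapped, and the log2 difference was 0.04 ± 0.64 SE (adjusted p = 0.969). *Spp1*, which encodes osteopontin, was higher, at 16.6 and 3.97 against 0.202, 0 and 0.606 CPM, and had no counts in WT. *Gja1*, the gap junction gene for connexin 43, was at 12.2 and 5.47 against 2.46, 4.01 and 5.73 CPM, with an overlap, and at 0.0382 and 0.0407 CPM in WT (adjusted p = 0.12). Over the list the median difference from WT was 1.13 for Rptor fl/fl and 0.22 for SCe. Between 9 and 21 genes were higher with single lines left out, the fewest without Rptor fl/fl line 1.

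YAP targets were split. YAP and its partner TAZ bind DNA through TEAD factors. Of 27 tested, 9 were higher and 5 lower, with a median of 0.50. *Ankrd1*, an ankyrin repeat protein gene read as a YAP target, was at 8.46 and 2.91 CPM against 0.0673, 0 and 0.173 CPM (log2 6.10 ± 1.09 SE, adjusted p = 0.0107), with WT at 0.0572 and 0.0611 CPM. The angiomotin family gene *Amotl2* was at 33.4 and 24 against 7.71, 5.34 and 8.38 CPM, and *Ajuba*, a LIM protein that binds LATS kinases, at 83.0 and 57.4 against 20.1, 14.6 and 25.3 CPM. *Crim1* and *Gadd45b* were higher by 0.98 and 1.27 on the log2 scale. *Tgfb2*, a TGF-β ligand, and *Axl*, a receptor kinase, were lower. *Axl* was at 0.254 and 0.141 against 0.673, 1.39 and 1.82 CPM. *Myof* (adjusted p = 0.122) and *Ccn2* (adjusted p = 0.525), a myoferlin and a matricellular protein gene, did not pass. *Ccn2* was at 21.1 and 7.58 against 24.9, 10.5 and 25.1 CPM, and at 2.23 and 1.2 CPM in WT, so both groups lay above WT. The median difference from WT was 1.13 for Rptor fl/fl and 0.52 for SCe. Without Rptor fl/fl line 1 the counts were 3 higher and 1 lower, and without SCe line 1 they were 14 and 6.

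RefSeq promoters (GRCm38.p6, 250 bases before to 50 after a start site) were available for 20 of the tested YAP targets, and 8 of these genes (40%) held the TEAD motif CATTCC on either strand in at least 1 promoter. It was in 14.7% of all 32851 promoters and, counted the same way, in 16.6% of all 27025 genes. Of the 8, 5 were higher, 1 lower and 2 not called. A match of letters is no proof of binding. Stretches of 60 bases around the motif are shown for 3 genes that were higher and for *Axl*, 5′ to 3′ along the gene's strand, with the motif or its reverse complement in capitals. They lie at chr19:36119935-36119994 (minus strand, *Ankrd1*), chr9:102717712-102717771 (plus strand, *Amotl2*), chr14:54577793-54577852 (minus strand, *Ajuba*) and chr7:25788924-25788983 (minus strand, *Axl*). *Ajuba* held 2 copies within 60 bases, in contrast to the single copy in each other stretch.
Ankrd1: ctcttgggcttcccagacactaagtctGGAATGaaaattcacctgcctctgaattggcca
Amotl2: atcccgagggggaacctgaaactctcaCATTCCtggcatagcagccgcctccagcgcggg
Ajuba: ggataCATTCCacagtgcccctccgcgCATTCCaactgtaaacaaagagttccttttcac
Axl: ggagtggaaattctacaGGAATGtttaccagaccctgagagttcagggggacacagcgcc

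Kinases and regulators upstream of YAP moved in both directions. Of 23 genes of the stress kinase and SRC-YAP axis 6 were higher and 6 lower, with a median of -0.15. *Src* was at 108 and 101 CPM against 74.5, 57.3 and 63.1 CPM (log2 0.69, adjusted p = 0.0113), with WT at 98.7 and 96.7 CPM. *Fyn*, a kinase of the same family, was far lower, at 0.761 and 1.23 against 29.3, 29.2 and 30.8 CPM. *Wwtr1*, which encodes TAZ, was at 18.1 and 11.9 against 45.6, 41.2 and 46.3 CPM, while *Yap1* was at 112 and 100 against 101, 86.1 and 83.9 CPM and did not pass (adjusted p = 0.145). *Map3k20*, which encodes the ribosome-sensing kinase ZAK, was at 75.6 and 64.7 against 68.1, 64.4 and 73.7 CPM (log2 0.03 ± 0.10 SE, adjusted p = 0.844). The p38 activator gene *Map2k3*, the ribosome quality control ligase gene *Zfp598* and the Hippo scaffold gene *Sav1* were higher by 0.73, 0.51 and 0.92 on the log2 scale. Without Rptor fl/fl line 1 there were 2 higher and 3 lower, and without SCe line 1 there were 8 and 6.

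Cell adhesion genes were split. Of 28 genes of basement membrane, collagens and integrins 7 were higher and 9 lower (median 0.08). The basement membrane collagens *Col4a1* and *Col4a2* were at 75.6 and 40.4 and at 71.7 and 37.0 CPM in Rptor fl/fl and at most 1.01 CPM in every SCe line. In WT they were at 8.34 and 2.67 and at 6.85 and 2.73 CPM. The integrin subunit genes *Itgb4* (log2 1.70) and *Itga3* (log2 1.01), which anchor cells to laminin, were higher. *Fn1*, which encodes fibronectin, was lower, at 17.7 and 13.0 against 38.0, 62.5 and 81.2 CPM, yet both groups were above WT, at 0.153 and 0.204 CPM. Of 11 serpin and plasminogen activator genes 5 were higher and 1 lower (median 0.44). *Serpinb9b*, an intracellular protease inhibitor gene, was at 14 and 8.78 against 0.404, 0.0474 and 0.0693 CPM, and *Plaur*, the urokinase receptor gene, at 48.6 and 39.2 against 20.4, 10.5 and 14 CPM. *Serpine2* was the 1 lower member (log2 -3.79). The first list had 5 higher and 2 lower without Rptor fl/fl line 1, and 11 and 10 without SCe line 1. The second had 1 higher and 0 lower without Rptor fl/fl line 2, and 5 and 2 without SCe line 1.

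Among keratins, junction proteins and the EGF family, more genes were higher than lower. Of 22 keratin, claudin and vimentin genes 12 were higher and 1 lower (median 0.79). The simple keratin genes *Krt8* and *Krt18* were at 2742 and 2691 and at 997 and 956 CPM, against 973, 1109.6 and 1122 and 437, 458 and 463 CPM. *Ocln*, for the tight junction protein occludin, was higher by 0.90 and the claudin gene *Cldn1* by 4.17 on the log2 scale. *Vim*, the mesenchymal intermediate filament gene, was the 1 lower member, at 1.25 and 2.96 against 90.7, 66.2 and 112 CPM, with WT at 1.87 and 2.99 CPM. Of 19 EGF family genes 7 were higher, 2 lower and 10 not called (median 0.67). The receptor genes *Erbb2* and *Erbb3* were at 205 and 191 and at 306 and 332 CPM, against 60.4, 42.2 and 42.0 and 82.4, 113 and 97.1 CPM, and *Egfr* was higher by 1.06 on the log2 scale. The ligand gene *Egf* was lower (log2 -1.48). Leaving out single lines gave between 8 and 13 higher in the first list and between 3 and 13 in the second.

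Beyond *Rptor*, genes of the mTOR pathway were called at the background rate. Of 32 tested, 8 were higher and 6 lower (43.8%), with a median of 0.09. The members with the smallest adjusted p or the largest rise or fall included genes of amino acid sensing, which went in both directions. *Castor2*, of the arginine sensor family, was at 2.57 and 3.51 CPM against 39.9, 28.6 and 28.6 CPM, and *Sesn3*, of the sestrin family that restrains mTORC1, at 24.7 and 29.6 against 143, 122 and 115 CPM (log2 -2.22 ± 0.15 SE, adjusted p = 0.00108). *Flcn*, the folliculin gene, which acts on Rag GTPases at the lysosome, was at 52.6 and 56.9 against 15.3, 19.0 and 16.1 CPM, and WT was between the groups, at 27.7 and 27.1 CPM. *Rragb*, a Rag GTPase gene, was higher at a low level, at 0.702 and 0.494 against 0.269, 0.126 and 0.139 CPM. Some subunits shared with or particular to the sister complex were higher by less: *Rictor* by 0.45, *Mlst8* by 0.53 and the inhibitory subunit gene *Deptor* by 1.01 on the log2 scale. *Mtor*, the kinase itself, was at 88.1 and 83.0 against 95.9, 81.7 and 83.4 CPM (adjusted p = 0.863). With single lines left out between 4 and 10 of the list were higher and between 4 and 7 lower.

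Lysosomal genes were mostly lower in Rptor fl/fl than in SCe organoids, while the medians of both groups lay above WT. Of 28 tested, 15 were lower and 1 higher (57.1% called), with a median of -0.34. The membrane protein gene *Lamp2* was at 200.3 and 205 CPM against 425, 461 and 454 CPM (log2 -1.14 ± 0.08 SE, adjusted p = 0.0013), with WT at 152 and 179 CPM. *Ctsa*, which encodes cathepsin A, was at 101 and 130 against 230.3, 302 and 294 CPM, the peptidase gene *Tpp1* at 79.2 and 84.9 against 169, 169 and 146 CPM, and *Gla*, the α-galactosidase gene, at 15.5 and 17.4 against 28.4, 30.3 and 29.8 CPM. *Ctsl*, the cathepsin L gene, was at 107 and 81.8 against 182, 219.6 and 192 CPM, and at 33.6 and 35.9 CPM in WT. *Scarb2*, a lysosomal membrane receptor gene, was the 1 higher member. The median difference from WT was 0.33 for Rptor fl/fl and 0.62 for SCe. With single lines left out between 8 and 17 were lower and 1 was higher in each fit.

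The core of the CLEAR element, TCACGTGA, to which the lysosomal regulators TFEB and TFE3 bind, was present in promoters of 6 of the 22 lysosomal genes with a RefSeq promoter, on a letter sequence that is its own reverse complement, against 0.974% of all 32851 promoters and 1.12% of genes. Of the 6, 4 were lower and 2 were not called. The factor genes themselves did not pass the test: *Tfeb* had an adjusted p of 0.277 and *Tfe3* of 0.517. Stretches of 60 bases with the core in capitals are shown for 2 genes that were lower, *Gla* (chrX:134601167-134601226, minus strand) and the proton pump gene *Atp6v1a* (chr16:44139358-44139417, minus strand), and for *Ctsd* (chr7:142387893-142387952, minus strand), the cathepsin D gene, which was not called.
Gla: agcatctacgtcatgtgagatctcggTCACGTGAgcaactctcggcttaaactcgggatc
Atp6v1a: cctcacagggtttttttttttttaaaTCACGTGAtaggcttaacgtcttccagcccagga
Ctsd: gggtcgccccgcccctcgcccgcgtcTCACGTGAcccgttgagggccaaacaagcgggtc

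Genes known as targets of ATF4, the transcription factor of amino acid limitation that mTORC1 also controls, were more often lower than higher. Of 31 tested, 15 were lower and 4 higher (61.3% called), with a median of -0.76. *Slc7a11*, the cystine transporter gene, was at 14.2 and 11.3 CPM against 135, 246 and 235 CPM (log2 -4.01 ± 0.35 SE, adjusted p = 0.00179), and WT was between the groups, at 87.9 and 76.9 CPM. *Slc7a5*, a transporter gene for large neutral amino acids, was at 58.9 and 48.0 against 132, 151 and 171 CPM. *Aldh18a1*, of proline synthesis, and *Aldh1l2*, of mitochondrial folate metabolism, were lower by 0.82 and 4.19 on the log2 scale. The serine synthesis genes *Phgdh*, *Psat1* and *Psph* were lower together, with log2 differences of -1.41, -2.35 and -2.06. *Cebpb*, a transcription factor gene, was higher, at 10.5 and 11.6 against 3.47, 3.41 and 3.10 CPM. *Atf4* mRNA was at 178 and 171 against 159, 136 and 125 CPM, with WT at 281 and 229 CPM (adjusted p = 0.0857). Of 20 aminoacyl-tRNA synthetase genes, several of which are themselves ATF4 targets, 5 were lower and none higher (median -0.51). That is 25% called, under the 42.7% of all tested genes, of which 21.8% were lower. *Gars*, which charges glycine tRNA, was at 161 and 132 against 425, 418 and 439.7 CPM, and *Cars*, *Rars* and *Kars* were lower by 1.06, 0.59 and 0.51 on the log2 scale. *Farsa* had a positive value (log2 0.34) that did not pass. Without SCe line 1 the synthetase count was 13 lower, and without any other single line it was 1. The ATF4 binding motif, TGATG and AAT with 1 base between them, was found on either strand in promoters of 2 of 27 listed genes, 1 higher and 1 lower, and in 0.965% of all promoters. The ATF4 list had 6 lower without either Rptor fl/fl line and 18 without SCe line 1.

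The translation machinery gave fewer calls than genes at large. Of 78 ribosomal protein genes 9 were higher and 1 lower (12.8%), with a median of 0.07. *Rpl22* had the smallest adjusted p (0.00524), at 322 and 326 CPM against 197, 225 and 208 CPM, with WT at 315 and 326 CPM. SCe and WT lines share the RPL22.HA allele, and the Rptor fl/fl label lacks it. *Rpl12* and *Rpl7* were each higher by 0.45 and *Rpl41* lower by 0.45 on the log2 scale. Of 28 translation factors 6 were higher and 2 lower (median -0.02). *Eef2k*, the kinase that inhibits elongation factor 2, was at 74.4 and 67.2 against 32.0, 29.1 and 29.2 CPM (log2 1.24 ± 0.09 SE, adjusted p = 0.00123). *Eif4e*, the cap-binding factor gene, was lower by 0.50, and the rescue factor gene *Pelo* and *Tpt1* higher by 0.55 and 0.53 on the log2 scale. Of 22 ribosome biogenesis genes 3 were higher and 1 lower (median -0.07). The polymerase I factor gene *Ubtf*, *Gar1* and *Nop2* were the 3 higher and *Pes1* the lower, each with a log2 size under 0.5. With a Rptor fl/fl line left out, 1 ribosomal protein gene was higher and 0 lower, and DESeq2 called 19 higher and 2 lower. Translation factors had 1 higher and biogenesis genes none higher when either Rptor fl/fl line was left out, and without SCe line 1 they had 8 higher and 4 lower and 5 higher and 4 lower.

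Core glycolysis genes were mostly lower. Of 20 tested, 13 were lower in Rptor fl/fl organoids and 1 was higher (70.0% called), with a median of -0.67. *Slc16a3*, a lactate exporter gene, was at 30.0 and 28.9 CPM against 226, 191 and 158 CPM (log2 -2.70 ± 0.18 SE, adjusted p = 0.00108), with WT at 141 and 90.1 CPM. The aldolase gene *Aldoc* was at 35.0 and 30.5 against 78.1, 79.0 and 68.3 CPM, the pyruvate kinase gene *Pkm* at 1432 and 1339.7 against 2554, 2970.4 and 2590.0 CPM, and the enolase gene *Eno2* lower by 2.70 on the log2 scale. *Hk2*, a hexokinase gene, had a positive value (log2 0.44) that did not pass. The 1 call in the higher direction was *Eno1*, whose reads are split with its near-identical copy *Eno1b*. *Eno1* was at 1196 and 1102 against 784, 937 and 830.3 CPM, and *Eno1b* at 1.77 and 0.176 against 1236, 1507 and 1319 CPM. Summed, the copies were at 1198 and 1102 against 2020.2, 2444 and 2149 CPM, which turns the direction (log2 ratio -0.94). The median difference from WT was -0.52 for Rptor fl/fl and 0.20 for SCe. With single lines left out between 6 and 16 were lower, the fewest without either Rptor fl/fl line.

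Other metabolic groups were mixed. Of 29 genes of the pentose phosphate pathway and nucleotide synthesis 6 were lower and 4 higher (median -0.04). The transaldolase gene *Taldo1* was at 196 and 197 CPM against 404, 426 and 412 CPM, and *Rpia*, for ribose phosphate isomerase, was higher at 62.5 and 60.3 against 16.9, 19.6 and 23.5 CPM. *Prps2* and *Impdh1*, of purine synthesis, and *Rrm2*, a ribonucleotide reductase subunit gene, were lower by 0.82, 1.29 and 1.2 on the log2 scale. Of 49 nuclear genes of the respiratory chain 6 were higher and 2 lower (16.3%, median 0.13). The complex I genes *Ndufs7* and *Ndufs3* were higher by 0.85 and 0.49 and *Uqcrq*, of complex III, lower by 0.69 on the log2 scale. The share of counts from mitochondrial genes was lower in both Rptor fl/fl libraries than in any SCe library, as given above. Of 30 cholesterol and fatty acid synthesis genes 11 were higher and 2 lower (median 0.47). *Mvd*, of the mevalonate pathway, was at 93.9 and 80.6 against 44.5, 38.1 and 31.2 CPM, with WT above both, at 121 and 112 CPM. The sterol desaturase gene *Sc5d* and the elongase gene *Elovl6* were higher by 0.68 and 0.48 on the log2 scale. *Scd1*, the stearoyl desaturase gene, went the other way, at 133 and 98.1 against 835, 468 and 406 CPM. With either Rptor fl/fl line left out 1 gene of this list was higher, and without SCe line 1 there were 19. The first list had between 1 and 6 higher and 4 to 9 lower with single lines left out, and the second between 1 and 9 higher and 0 to 8 lower.

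Of 27 glutathione and NRF2 target genes 9 were higher and 8 lower (median -0.0041). Leaving out single lines gave 4 to 10 higher and 5 to 12 lower, and the median ran from -0.37, without SCe line 1, to 0.25. *Nfe2l2*, which encodes NRF2, was at 442 and 401 CPM against 138, 171 and 146 CPM, and the peroxidase gene *Gpx1* and the glutathione transferase gene *Mgst2* were higher by 1.33 and 2.43 on the log2 scale. *Srxn1*, which encodes sulfiredoxin, was lower, at 40.2 and 41.5 against 89.6, 129.6 and 108 CPM. Of 30 proliferation genes 5 were lower and 2 higher (median -0.13). The cell cycle inhibitor gene *Cdkn2b* was at 28.8 and 29.6 against 6.33, 5.92 and 5.28 CPM, and *Ccne1*, for cyclin E1, and *E2f1* were lower by 1.24 and 0.81 on the log2 scale. *Mki67* did not pass the test (log2 -0.09, adjusted p = 0.626). Without SCe line 1, 11 proliferation genes were lower.

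**Figure D3:**
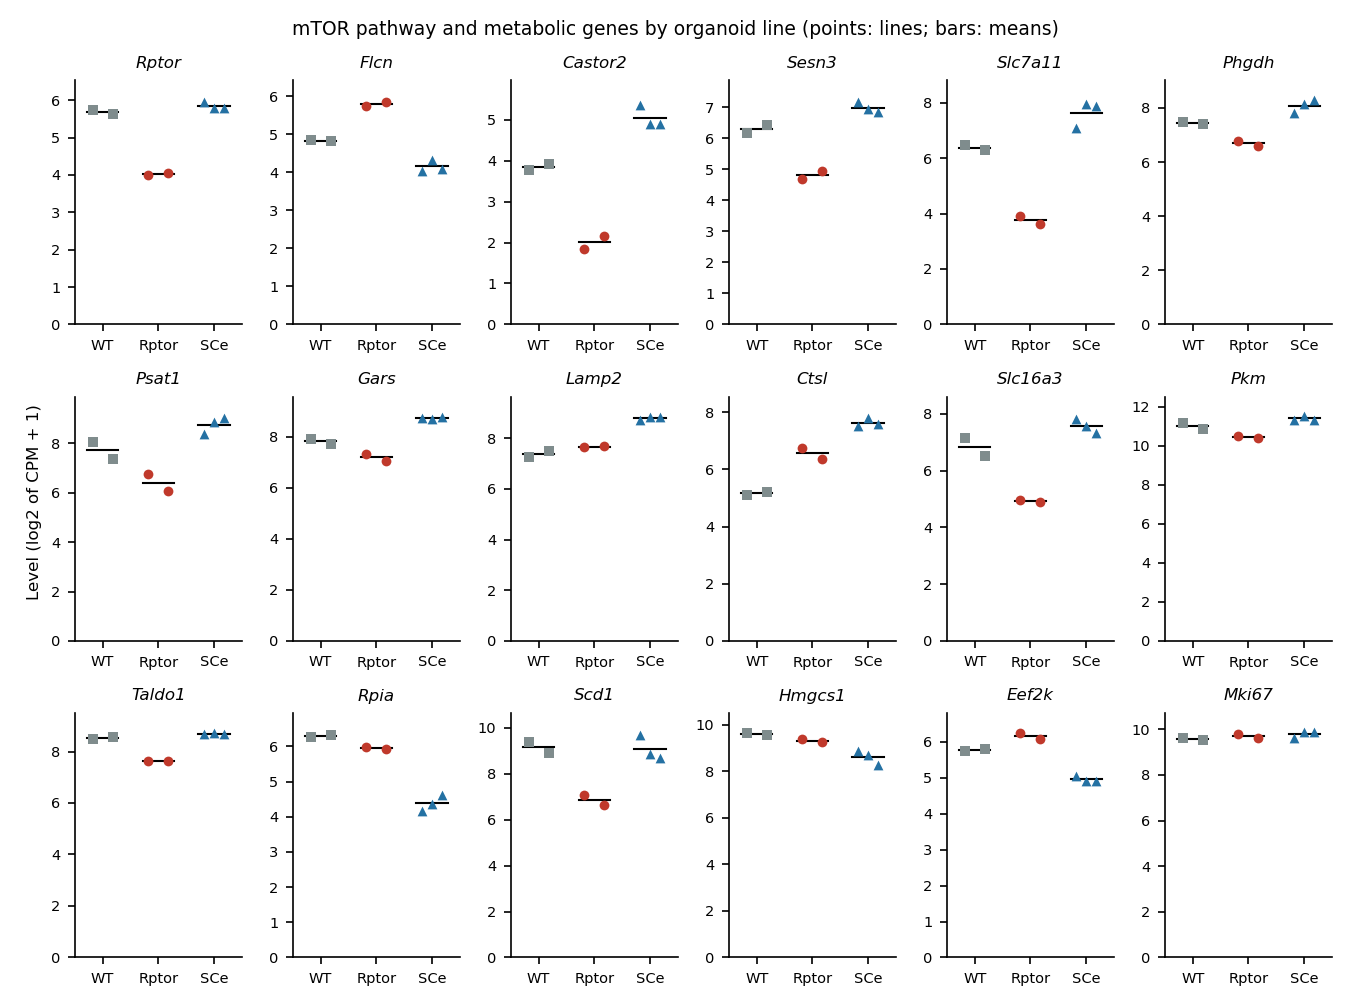
Levels of 18 mTOR pathway, amino acid, lysosomal, metabolic and cell cycle genes on the y axes, as log2(CPM + 1), in the 2 WT lines (grey squares), 2 Rptor fl/fl lines (red circles, labelled Rptor) and 3 SCe lines (blue triangles), with bars at the group means. *Rptor* is low in the Rptor fl/fl lines alone, while *Lamp2* and *Ctsl* are lowest in WT and highest in SCe.

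Interferon-response and MHC genes were mostly lower in Rptor fl/fl organoids. Of 26 tested, 15 (57.7%) were lower and none higher, with a median of -1.67. *Bst2*, which encodes tetherin, was at 5.71 and 6.38 CPM against 44.7, 39.0 and 35.6 CPM (log2 -2.72 ± 0.14 SE, adjusted p = 0.00105). WT was at 6.01 and 4.99 CPM, beside the Rptor fl/fl lines, and the SCe lines alone were high. The antiviral genes *Rsad2* and *Ifit2* were at 0.429 and 0.635 and at 2.81 and 2.82 CPM, against 4.85, 4.30 and 5.52 and 17.8, 10.7 and 13.1 CPM. The class I antigen gene *H2-K1* was lower by 0.83 on the log2 scale. *H2-Ab1*, a class II antigen chain gene, had 4 counts in the Rptor fl/fl lines together against 5.22, 27.6 and 36.0 CPM in SCe, a ratio of 713 (95% counting interval 278 to 2618). *Stat2*, a signal transducer of the interferon receptor, had a positive value (log2 0.41) that did not pass. The median difference from WT was -0.20 for Rptor fl/fl and 1.2 for SCe. Between 6 and 20 were lower with single lines left out, the fewest without either Rptor fl/fl line.

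The core of the interferon response element, 2 copies of GAAA with 2 bases between them, was found on either strand in the promoters of 8 of the 20 interferon and MHC genes with a RefSeq promoter, against 3.44% of all 32851 promoters and 3.99% of genes. Of the 8, 5 were lower and 3 not called. The stretches below, with each core in capitals, are from *Bst2* (chr8:71537562-71537621, minus strand), *Rsad2* (chr12:26456538-26456597, minus strand), *Cxcl10* (chr5:92349068-92349127, minus strand), a chemokine gene, and *Ifit1* (chr19:34640779-34640838, plus strand), all of which were lower. *Bst2* and *Ifit1* held more than 1 core. Among the genes not called, which are not shown, *Isg15* held 3 cores and *B2m* and *Stat2* held 1 each.
Bst2: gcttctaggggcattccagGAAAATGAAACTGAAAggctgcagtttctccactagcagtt
Rsad2: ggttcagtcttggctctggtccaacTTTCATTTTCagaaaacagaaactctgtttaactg
Cxcl10: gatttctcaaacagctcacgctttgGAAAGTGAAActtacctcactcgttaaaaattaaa
Ifit1: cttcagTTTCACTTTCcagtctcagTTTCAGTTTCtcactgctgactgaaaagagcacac

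Because valproic acid inhibits histone deacetylases, a list of deacetylases and genes known to respond to such inhibitors was examined. Of 14 tested, 5 were higher and 5 lower (median -0.12). *Hdac7* was at 40.1 and 33.6 CPM against 7.14, 5.58 and 7.51 CPM, with WT between, at 19.9 and 17.5 CPM. *Hdac1* and *Hdac6* were lower by 0.74 and 0.84 on the log2 scale. *H1f0*, a linker histone gene that responds to deacetylase inhibitors, was at 294 and 277 against 1092, 778 and 749 CPM, and WT at 423 and 387 CPM. With either Rptor fl/fl line left out 3 of the list were higher and 3 lower, and without SCe line 1 there were 5 and 5.

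Markers of immune and stromal cells were low, while some gastric and pancreatic markers were not. Of 18 immune markers 6 could be tested, 1 was higher, and the summed level ran from 4.21 to 7.17 CPM over the 5 lines. *Ptprc*, the pan-leukocyte antigen CD45, was at 0.254 and 0.353 CPM against 0.0673, 0 and 0.0519 CPM. Of 19 stromal and endothelial markers 10 could be tested, 3 were lower and 2 higher, and the sum ran from 11 to 15.8 CPM. *Pdgfra*, a receptor gene of fibroblasts, was at 0.117 and 0.159 against 4.34, 2.99 and 2.72 CPM, *Des*, which encodes desmin, had 1 count in Rptor fl/fl, and *Col1a1* was at 0.0780 and 0 against 1.92, 0.900 and 1.14 CPM, so 3 defining stromal genes were near 0 in Rptor fl/fl and low in SCe. The glial gene *S100b*, at 0.683 and 0.917 against 0.269, 0.348 and 0.433 CPM, was among the higher ones. Of 20 pancreatic and gastric markers 11 could be tested, 6 were higher and 1 was lower, and 6 had no counts in any of the 5 lines. The fitted median was 6.14, and 4.36 with genes near 0 at their bound. Without the count filter it was 3.13 over 14 genes. Of the 11, 4 had at most 3 counts in every SCe line and passed the filter through their Rptor fl/fl counts. The medians thus depend on the filter and do not describe the 20 markers as a set. The fitted median difference from WT over the 11 was 1.17 for Rptor fl/fl and -3.57 for SCe, with the same limit. The pancreatic gene *Ctrb1* was among the higher ones, with the values given above. *Tff1*, a trefoil peptide of the stomach surface, was at 52.4 and 115 CPM against 0.707, 0 and 0.0346 CPM, with WT between the groups, at 6.05 and 9.78 CPM. By group mean, the gastrokine gene *Gkn2* was at least 50.2-fold higher and the gastric mucin gene *Muc5ac* at least 20.6-fold higher (against 3 counts per library). *Gkn1* was 192-fold higher by summed counts (95% counting interval 74.5 to 707). *Atp4a*, a subunit of the gastric proton pump, was lower, at 0.956 and 0.899 against 8.55, 8.59 and 9.09 CPM. Whether stomach-type or pancreatic cells were present was not tested.

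**Figure D4:**
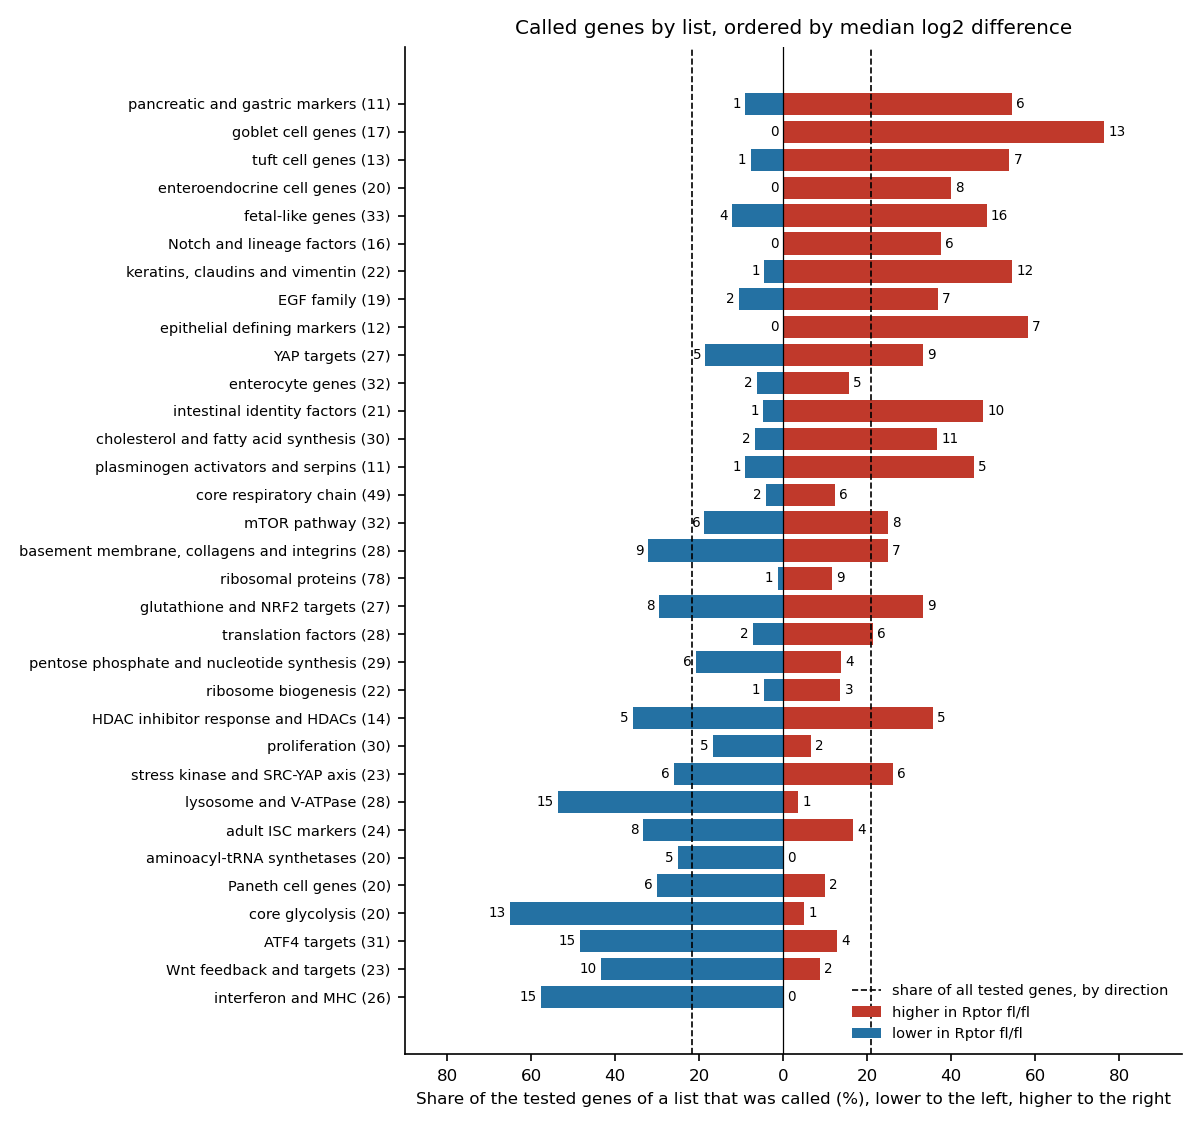
For each of 33 gene lists (number of tested genes in brackets), bars give the share of tested genes called higher in Rptor fl/fl (red, to the right) and lower (blue, to the left), in percent on the x axis, with the number of genes beside each bar. Dashed lines mark the shares over all tested genes, 21% and 21.8%. Goblet cell genes reach furthest to the right and core glycolysis furthest to the left.

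Set beside WT organoids, the lists fell into patterns that the comparison of the 2 groups alone does not show. Wnt, interferon and goblet genes had their larger departure from WT in SCe, with list medians of 1.16, 1.2 and -2.54, against -0.19, -0.20 and 0.52 in Rptor fl/fl. By list median, fetal-like genes, ATF4 targets and core glycolysis had theirs in Rptor fl/fl, at 1.13, -0.75 and -0.52, against 0.22, 0.07 and 0.20 in SCe. In 19 of the 33 tested fetal-like genes WT lay nearer to Rptor fl/fl than to SCe, so the pattern of the median was not that of most genes. The share over all tested genes was 67.8%, and the count is to be read against it. Paneth cell genes had medians below WT in both, at -1.96 in Rptor fl/fl and -0.96 in SCe. Their summed level in SCe lines 2 and 3, 5684 and 7125 CPM, was near that of WT, 5886 and 7288 CPM. SCe line 1, at 1471 CPM, was far below. The differences of the 2 groups from WT share the WT lines, so they are given as values only.

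**Figure D5:**
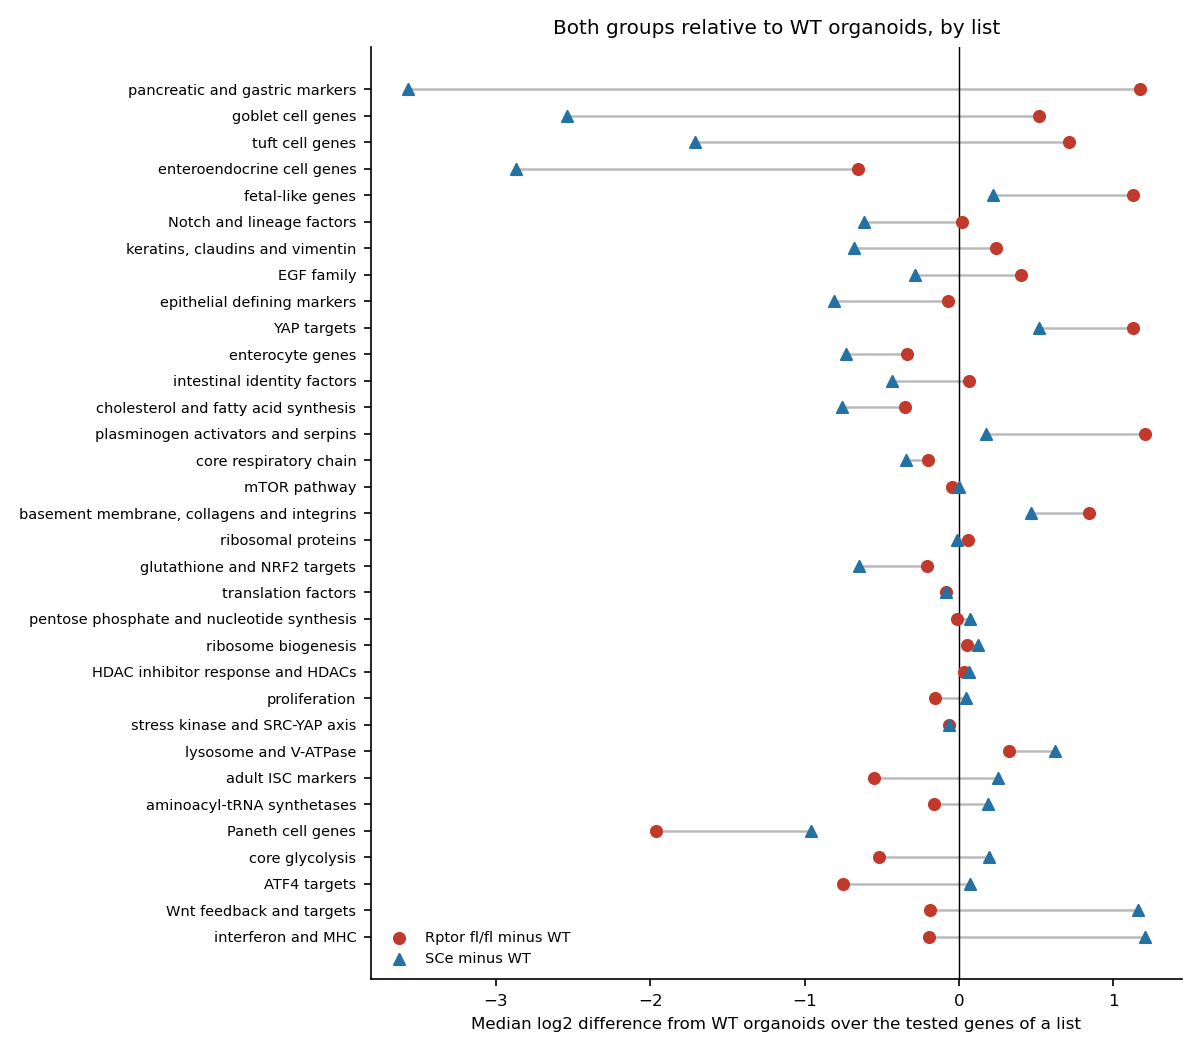
Median log2 difference from WT organoids over the tested genes of each of 33 lists on the x axis, for Rptor fl/fl (red circles) and SCe (blue triangles), joined by a grey line and ordered by the difference between the groups. Lists in which the circle lies near 0 and the triangle far from it, such as interferon and MHC genes, differ from WT mainly in SCe.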

How the data were processed

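RNA-seq libraries of Rptor fl/fl (4 libraries, 2 lines), SCe (3 lines) and WT organoids (4 libraries, 2 lines) were grouped by their labels. Estimated counts per transcript were deposited by the authors. They come from Salmon 1.1.0 after trimming with cutadapt 1.18, per the submitters' processing notes, against GENCODE vM21 (mm10). Estimated counts were summed per gene and over technical libraries of a line and rounded. Genes were kept by filterByExpr, scaled by TMM and tested with edgeR 4.0.16 (quasi-likelihood, Benjamini-Hochberg adjustment, threshold 0.05) in R 4.3.3, on the 5 lines alone. The same fit with WT as a group gave the differences from WT. The code was tested on simulated data. The lines held 27439433 to 67598842 counts. Counting intervals (exact, 95%) and floors of 3 counts cover counting error only.

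The comparison and its gene lists were chosen with earlier results of these data known. Named genes were *Rptor*, in each list the 4 with the smallest adjusted p and the largest rise and fall (any member of lists with at most 12 tested genes), the genes the study stained, blotted or measured by PCR, and the 10 largest called changes each way with a mean of at least 5 CPM in the higher group. *Ajuba*, *Ascl2*, *Atf4*, *Atp6v1a*, *Ctsd*, *Ctsl*, *Cxcl10*, *Deptor*, *Eno1*, *Fn1*, *Ifit1*, *Mki67*, *Mlst8*, *Mtor*, *Myl12b*, *Nkd1*, *Phgdh*, *Psat1*, *Psph*, *Reg3b*, *Reg3g*, *Rictor*, *Smoc2*, *Tfe3* and *Tfeb* were chosen after their values were seen. Of 873 listed genes 57 were not tested and 3 symbols had no match. Alternatives were DESeq2 1.42.0, no count filter, an offset for effective length, technical libraries kept apart, library size without the top 10 genes, WT in the fit, line number as a block, and each line left out. Summed *Eno1* and *Eno1b* counts were added after seeing the data. Ribosome profiling libraries, TPM columns and the authors' table of fold changes and p-values were not used. A few genes that the rule names are not reported here.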

Additional observations from a re-analysis of the deposited data

How the results depend on the processing

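Of the 6452 called genes, 3 changed direction under the offset for effective transcript length and none under the other fits. Of those whose reads were summed with a copy, *Eno1* turned to -0.94 and the second *Myl12b* entry to -0.13, a choice made after seeing the data. At an adjusted p of 0.01, 1485 genes were higher and 1556 lower. With the line number as a replicate block, 1673 were higher and 1740 lower. The deviations of the 2 same-numbered pairs from their group means correlated at 0.33 and 0.294. With 2 Rptor fl/fl lines these deviations mirror each other, so the 2 values are not independent. Line 1 of each group was alike in its low Y-linked RNA, but no label ties the lines and 2 pairs are too few to settle the pairing. With single lines left out, 1216 to 4582 genes were higher and 1293 to 4519 lower. Of the 206 genes named, 57 lost their call without Rptor fl/fl line 1 and 60 without line 2, where the remaining line was assumed to vary like the SCe lines. Some uncalled genes changed sign, and the cause was not tested. The offset gave -0.0015 for *Ly6a* and -0.0079 for *Map3k20*, and technical libraries kept apart gave -0.0051 for *Map3k20*. With single lines left out the log2 difference ran from -1.41 to 0.072 for *Ccn2*, -0.00059 to 0.081 for *Cdh1*, -0.20 to 0.0028 for *Ctsd*, -0.044 to 0.16 for *Epcam*, -0.48 to 0.79 for *Ly6a*, -0.082 to 0.15 for *Map3k20*, -0.75 to 0.015 for *Mex3a*, -0.19 to 0.019 for *Mki67* and -0.075 to 0.047 for *Mtor*.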

Other observations

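*Myl12b*, a myosin light chain gene, has a second entry in the annotation that had no counts in SCe. Its level was 21.8 and 20.8 CPM in Rptor fl/fl and 16.7 and 19.4 CPM in WT. With both entries summed, the log2 ratio of Rptor fl/fl to SCe means was -0.13.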
